A study of Mus musculus with 7 samples.

Results

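The genes described here are 29 mouse genes of the peroxisome, chosen by name: 13 peroxins, which build the organelle, 11 genes for the import and oxidation of fatty acids in it, 4 genes for the peroxisomal steps of ether lipid synthesis, and Cat, the catalase that removes its hydrogen peroxide. All 29 were found among the 49315 gene identifiers counted. RNA came from primary mouse oligodendroglia, the cells of the myelin-forming lineage, shaken off mixed glial cultures of newborn brain, depleted of microglia and kept in SATO medium under differentiating conditions for 6 days. The wildtype control group (Klf13-wt) held 4 cultures and the Klf13 knockout group (Klf13-ko) held 3, with 1 library each. The knockout is constitutive, so that every cell type in a culture carried it, and both groups were differentiated in the same way with thyroid hormone in the medium. KLF13 is a zinc finger transcription factor of the Krüppel-like family. The comparison asks which of the peroxisomal transcripts differ when it is missing.

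Peroxisomes are small organelles bounded by a single membrane that shorten very long chain and branched fatty acids and carry out the first steps in the synthesis of ether lipids. Peroxins insert the membrane proteins, carry enzymes from the cytosol across the membrane and divide the organelle. Plasmalogens, the ether lipids with a vinyl ether bond, are abundant in myelin, and inherited defects in peroxisome assembly, in very long chain fatty acid import or in plasmalogen synthesis damage myelin in humans and mice.

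The libraries held 24507471 to 59596479 counts on genes. Klf13, on chromosome 7 of GRCm38 from 63886351 to 63938915, was counted at 10670 to 12000 normalized counts in the controls and 802 to 961 in the knockouts, with a log2 fold change of -3.69 (edgeR adjusted p = 6.77e-06). For normalized counts, each count was divided by its library size after TMM scaling and brought back to the mean size of the 7 libraries. Markers of the labelled cell type were abundant in every library, and all 12 mature oligodendrocyte markers on the list used were lower in the knockout, with a summed level of 1124739 to 1286325 normalized counts in the controls and 320101 to 367922 in the knockouts. In bulk RNA, fewer cells of a type and less RNA per cell cannot be told apart. Among the markers of other cells, 3 of 8 for oligodendrocyte progenitors, 7 of 8 for astrocytes and 8 of 10 for neurons were higher in the knockout, with summed levels of 154471 to 169545 against 197310 to 198772, 147739 to 167957 against 223457 to 253921, and 23487 to 32560 against 49305 to 62226. Control replicate 3 stood apart by its microglia markers, which summed to 73699 normalized counts against 15458 to 18014 in the other controls and 14769 to 32440 in the knockouts. It also held the highest sum of the 8 fibroblast and mural cell markers (57442, against 12347 to 42371 in the other controls and 5428 to 12778 in the knockouts; 1 was called lower). The endothelial markers, of which 4 of 6 could be tested and 1 was lower, summed to 457 to 1127 in the controls and 402 to 565 in the knockouts. None of the lists had a gene at 0 in every library. Over all genes tested, 12.2% were called lower and 11.6% higher. Of the progenitor, astrocyte and neuron markers, C1ql1 (log2 fold change -0.25), S100b (-0.54), Nefl (-0.45) and Nefm (-0.73) had lower values without passing the test. The share of counts on Gm42418, Gm23935 and Lars2, on which ribosomal RNA reads collect, was 6.03% to 7.56% in control replicates 2 and 3 and knockout replicate 2 and 14.1% to 18.0% in the other 4 libraries.

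In the controls, the levels per length of the 29 genes covered a wide range. A level per length is the CPM value, taken over the scaled library size, per kilobase of exon. Cat had the highest at 75.0, followed by Scp2 (66.0), a thiolase and sterol carrier, Hsd17b4 (50.9), a bifunctional enzyme that hydrates and then oxidises acyl chains in beta-oxidation, and Abcd3 (34.3), a transporter for fatty acyl groups in the peroxisomal membrane. Gnpat (30.4) and Pex19 (30.2) lay next to each other and overlapped between libraries. At the other end were Ehhadh (0.845), Pex11g (0.770), Far2 (0.207) and Acox2 (0.0750). Acox2, an oxidase for branched chains, had between 2 and 26 raw counts per library, and Far2 between 52 and 139. The plot of levels by library shows how closely the libraries of a group lay together for most genes. The coefficient of variation between control libraries was smallest for Gnpat at 2.38%, with a median of 9.88% over the 29 genes, and exceeded 30% for Phyh (30.2%), Abcd2 (38.6%) and Acox2 (67.8%).

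**Figure D1:**
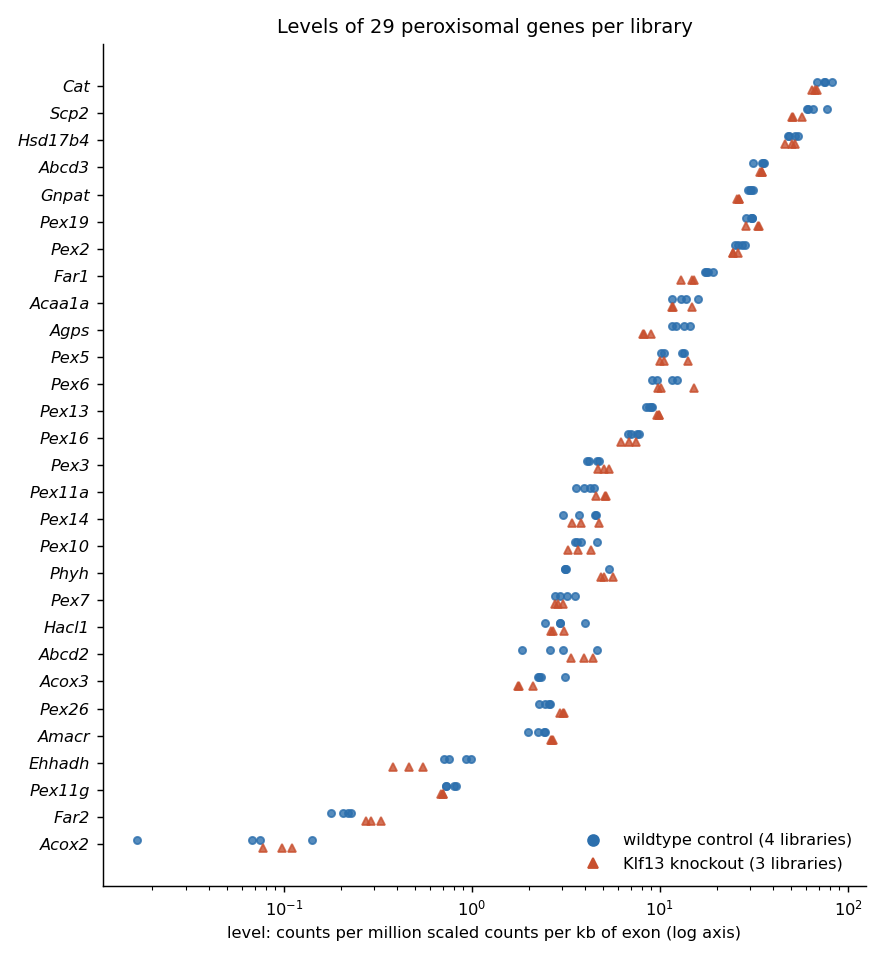
Level of each of the 29 genes in each of the 7 libraries, in CPM per kb of exon on a log axis, sorted by the mean of the controls (circles, 4 wildtype control libraries; triangles, 3 Klf13 knockout libraries). Cat, Scp2 and Hsd17b4 are at the top with control means of 75.0, 66.0 and 50.9, and Acox2 at the bottom with 0.0750.

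All 29 genes passed the filter on low counts and were tested together with the other genes, 18352 in all. At an adjusted p of at most 0.05, 4 of the 29 were lower in the knockout, namely Agps, Ehhadh, Far1 and Gnpat, which is 13.8% of them, against 12.2% of all genes tested. Pex26 was higher, which is 3.45%, against 11.6% of all genes tested. The other 24 passed in neither direction. The log2 fold changes ran from -0.86 for Ehhadh to 0.53 for Far2 with a median of -0.03, and the median of all genes tested was -0.00. With a 2-fold change as a further condition, which was the rule of the study, 3.08% of all genes tested were lower and 3.97% higher, but 0 of the 29 in either direction by edgeR and by DESeq2's Wald test. At an unadjusted p under 0.05, 7 of the 29 were lower and 4 higher, against 3377 and 3332 of the 18352 genes tested. Without knockout replicate 3, Ehhadh passed the 2-fold rule with a log2 fold change of -1.01. The libraries of both groups did not overlap for 7 genes that were lower and 5 that were higher, compared with 18.0% and 18.3% of all genes tested. The share called lower was thus near the background, and the share called higher, which rests on Pex26, was below it. Leaving out control replicate 1, knockout replicate 1 or knockout replicate 2 reduced the genes called lower to Agps and Far1. Over all genes, these fits called 1749 of 18265, 1254 of 19047 and 1317 of 18604 lower, against 2246 of 18352 with all libraries. Without control replicate 3 the count of the 29 called lower stood at 4 (2032 of 18383 over all genes). Phyh and not Pex26 was then the gene called higher (1754 of 18383 over all genes).

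**Figure D2:**
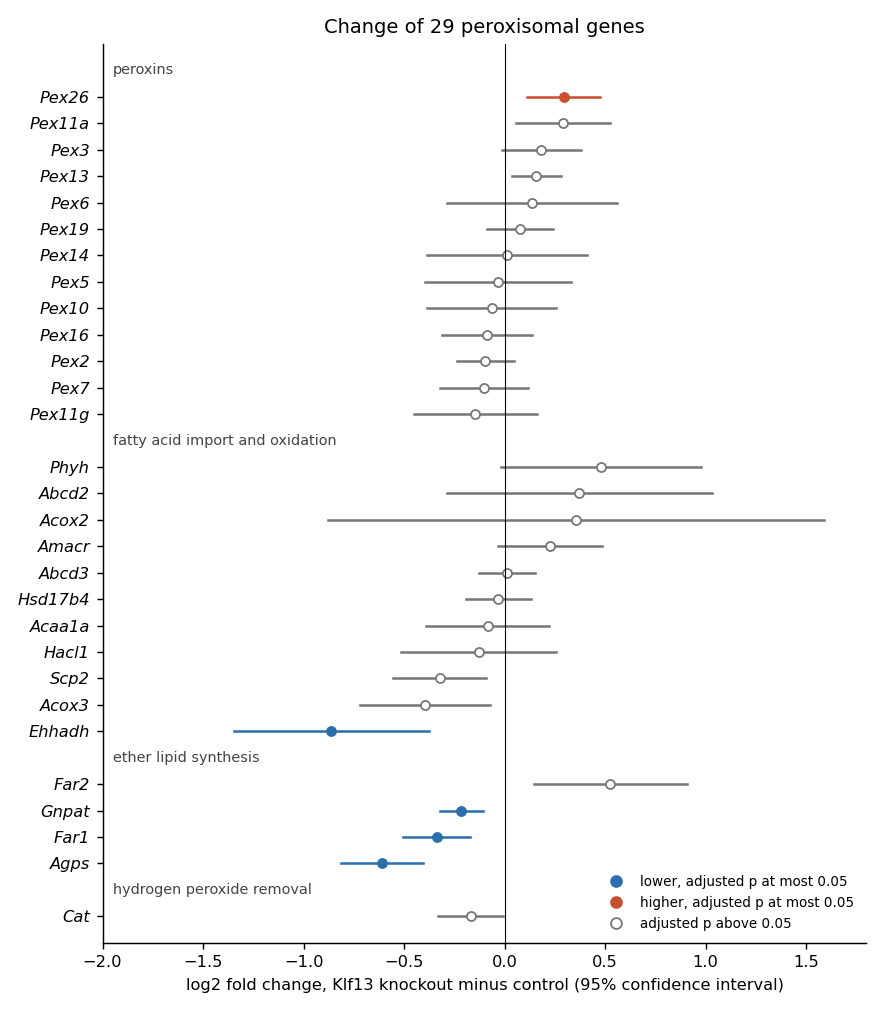
Log2 fold change of each of the 29 genes, Klf13 knockout minus control, with its 95% confidence interval from edgeR, grouped by role (filled points, adjusted p at most 0.05; open points, above 0.05). Of the 4 ether lipid genes, Agps, Far1 and Gnpat lie left of 0 and Far2 right of it, and 12 of the 13 peroxins are open points between -0.14 and 0.29.

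Of the 5 genes that passed the test, 3 belong to ether lipid synthesis, which is 3 of the 4 genes of this role (75% lower, against 12.2% of all genes tested). Gnpat attaches the first acyl group to dihydroxyacetone phosphate, Far1 and its isozyme Far2 reduce fatty acyl-CoA to the fatty alcohol, and Agps exchanges the acyl group for this alcohol and so makes the ether bond. Agps, Far1 and Gnpat were lower in the knockout at 65.5%, 79.1% and 86.1% of the control mean. Far2 was at 144% of it, but did not pass the test. To show the start regions of these 4 genes, the 250 bases upstream of the RefSeq transcription start (GRCm38.p6, each on the plus strand) are printed with 2 kinds of letters in capitals that Krüppel-like and Sp factors are known to bind, the GC box GGGCGG and the CACCC box, each searched on both strands, so that they also appear as CCGCCC and GGGTG. These are chr2:75831927-75832176 for Agps, chr8:124862783-124863032 for Gnpat, chr7:113513584-113513833 for Far1 and chr6:148047166-148047415 for Far2.
Agps: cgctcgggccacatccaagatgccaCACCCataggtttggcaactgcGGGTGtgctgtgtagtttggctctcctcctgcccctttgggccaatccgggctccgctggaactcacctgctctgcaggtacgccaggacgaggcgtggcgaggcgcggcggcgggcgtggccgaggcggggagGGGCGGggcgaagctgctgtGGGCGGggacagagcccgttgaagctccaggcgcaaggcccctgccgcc
Gnpat: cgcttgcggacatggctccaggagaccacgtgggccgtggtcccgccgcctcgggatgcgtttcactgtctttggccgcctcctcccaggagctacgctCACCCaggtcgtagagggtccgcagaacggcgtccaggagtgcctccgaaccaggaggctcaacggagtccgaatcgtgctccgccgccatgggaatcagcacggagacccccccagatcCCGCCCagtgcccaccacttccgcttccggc
Far1: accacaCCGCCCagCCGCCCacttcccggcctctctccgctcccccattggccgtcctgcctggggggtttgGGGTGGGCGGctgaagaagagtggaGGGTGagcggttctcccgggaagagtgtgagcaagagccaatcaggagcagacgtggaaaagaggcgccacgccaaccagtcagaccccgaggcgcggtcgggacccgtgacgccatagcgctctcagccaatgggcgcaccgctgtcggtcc
Far2: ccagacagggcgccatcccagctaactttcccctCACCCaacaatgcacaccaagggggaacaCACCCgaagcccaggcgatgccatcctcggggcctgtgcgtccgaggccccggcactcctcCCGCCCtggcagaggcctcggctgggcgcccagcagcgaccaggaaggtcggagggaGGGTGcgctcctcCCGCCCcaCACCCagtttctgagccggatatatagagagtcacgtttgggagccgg
Agps had 2 GC boxes and 2 CACCC boxes, Gnpat 1 of each, Far1 3 GC boxes and 2 CACCC boxes, with an overlap of both kinds in 1 place, and Far2 2 GC boxes and 4 CACCC boxes. The RefSeq start of Far2 lay 157 bases from the gene start given with the counts.

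RefSeq windows were found for 24 of the 29 genes. The RefSeq start lay 26451 bases from the gene start given with the counts for Scp2 and 1618 bases for Acaa1a. For the other windows it lay at most 788 bases away. All of these windows are in the shares below. A GC box occurred in 18 of their 29 windows (62.1%) and in 32.7% of all 32851 windows of this length, and a CACCC box in 19 (65.5%) and in 52.0%. The called genes and those that were not called both included windows with and without these letters. Agps, Gnpat, Far1 and Ehhadh had a GC box and Pex26 had neither box in its window, whereas Acox3 and Pex5, which were not called, had 4 GC boxes in a window. AGGTCA repeated after 1 base, searched on both strands and known as the sequence recognised by PPAR and RXR dimers, was in none of the 29 windows and in 0.0335% of all windows. These counts describe the letters of the windows and say nothing about binding.

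Agps lies on chromosome 2 from 75832177 to 75931350. Its normalized counts were 4801, 5028, 5975 and 5551 in wildtype and 3418, 3361 and 3719.7 in knockout cultures. The highest knockout was below the lowest control, and the log2 fold change was -0.61 (95% confidence interval -0.81 to -0.41, edgeR adjusted p = 0.00393, quasi-likelihood test). Under the alternatives it stayed between -0.65 and -0.55 and past the threshold in each of 14. Far1, on chromosome 7 from 113513834 to 113571511, read 6381, 6210.3, 6115 and 6813 normalized counts across the controls, compared with 5339, 4570.4 and 5235 across the knockouts, again without overlap. Its log2 fold change of -0.34 (95% confidence interval -0.51 to -0.17, edgeR adjusted p = 0.0153) also passed in each alternative, with the largest adjusted p at 0.0486.

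Gnpat, on chromosome 8 from 124863033 to 124890057, stood at 4932, 4659.7, 4808 and 4753 normalized counts in wildtype and at 4172, 4063 and 4139 in knockout cultures. The step was small, but so was the spread within both groups, and the log2 fold change was -0.22 (95% confidence interval -0.32 to -0.11, edgeR adjusted p = 0.0149). Without control replicate 1 or any of the 3 knockouts, the adjusted p rose above 0.05, to at most 0.0762. Far2 lies on chromosome 6 from 148047259 to 148182758 and gave 72.9, 70.4, 66.3 and 57.1 normalized counts for the wildtype cultures and 93.9, 88.0 and 105.9 for those without Klf13. Its groups did not overlap, and its log2 fold change of 0.53 (95% confidence interval 0.15 to 0.91) missed the threshold in edgeR with an adjusted p of 0.0537 and passed in DESeq2's Wald test with 0.0388. Far1 was the more abundant reductase in both groups. Per length, its level was 87.9 ± 13.7 (SD, n = 4) times that of Far2 in the controls and 47.9 ± 3.42 (SD, n = 3) times in the knockouts, as a description with no test.

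**Figure D3:**
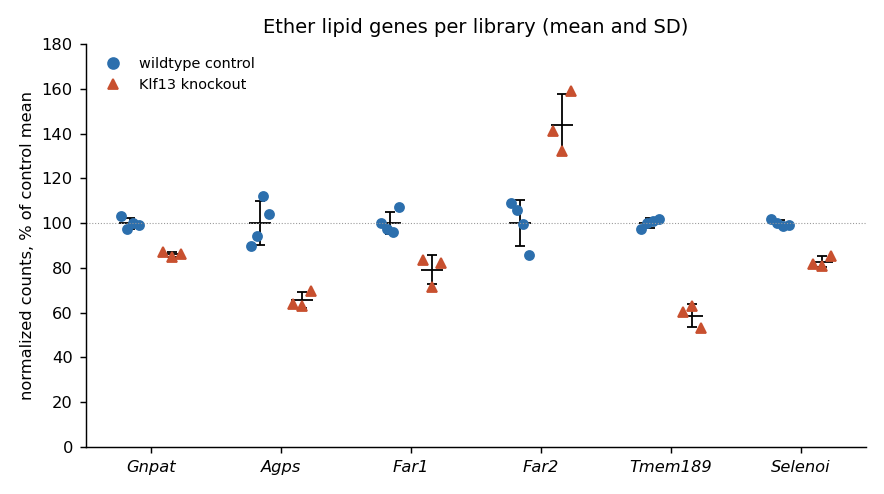
Normalized counts of 6 ether lipid genes in each library as a percentage of the control mean (circles, wildtype control; triangles, Klf13 knockout; horizontal bars and error bars, mean and SD). The knockouts lie at 86.1%, 65.5%, 79.1%, 144%, 58.7% and 82.7% on average for Gnpat, Agps, Far1, Far2, Tmem189 and Selenoi.

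The further steps of the pathway take place outside the peroxisome, mainly in the endoplasmic reticulum. A list of 10 genes of ether lipid steps outside the peroxisome was looked at, not all of them for synthesis. Of these 10, 2 were lower (20%, against 12.2% of all genes tested), Tmem189 and Selenoi, and the other 8 did not pass. The 10 log2 fold changes were between -0.77 and -0.07, with a median of -0.22. Tmem189, the desaturase that introduces the vinyl ether bond of plasmalogens, had normalized counts of 4430.0, 4574, 4589 and 4635 in wildtype and of 2737, 2868 and 2421 in knockout libraries. These groups were far apart, with a log2 fold change of -0.77 (95% confidence interval -0.93 to -0.61, edgeR adjusted p = 0.000439). Selenoi, which adds the ethanolamine head group, had a log2 fold change of -0.27 (95% confidence interval -0.38 to -0.17, edgeR adjusted p = 0.00691). Both passed in each alternative. The span of Tmem189 overlaps that of Gm20431 on the same strand, so that its counts are uncertain. The same libraries had lower values of the 12 mature oligodendrocyte markers and higher values of 7 of 8 astrocyte and 8 of 10 neuron markers. The astrocyte marker S100b and the neuron markers Nefl and Nefm had lower values and did not pass the test. The part of these cells in the changes was not tested. The ribosomal share divided the libraries into 2 controls and 2 knockouts with a high share and 2 controls and 1 knockout with a low share, so that the low class has a single knockout library and neither class was tested. In the high and the low class, the differences between knockout and control in mean log2 normalized counts were -0.53 and -0.71 for Agps, -0.32 and -0.43 for Far1, and -0.22 and -0.22 for Gnpat.

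Among the 11 genes of fatty acid import and oxidation, Ehhadh was lower (9.09%, against 12.2% of all genes tested) and the other 10 did not pass the test. Ehhadh encodes the bifunctional enzyme that carries out the same pair of steps for dicarboxylic acids, and lies on chromosome 16 from 21761287 to 21787844. It read 131, 99.5, 123 and 94.5 normalized counts across the controls, compared with 61.4, 50.2 and 73.1 across the knockouts, so that the groups did not overlap. Its log2 fold change was -0.86 (95% confidence interval -1.35 to -0.38, edgeR adjusted p = 0.0236), with differences of -0.73 and -1.14 in the high and low class of ribosomal share, the latter from 1 knockout library. The gene is weakly expressed, with 34 to 108 raw counts per library, and without control replicate 1, knockout replicate 1 or knockout replicate 2 the adjusted p rose above 0.05, to at most 0.0866. Hsd17b4, the other bifunctional enzyme, which acts on very long chain and branched substrates, had 7179 to 8154 normalized counts in the controls and 6956 to 7810.0 in the knockouts, a log2 fold change of -0.03 (95% confidence interval -0.19 to 0.13, edgeR adjusted p = 0.787). Its level per length was 61.2 ± 9.32 (SD, n = 4) times that of Ehhadh in the controls and 110 ± 24.5 (SD, n = 3) times in the knockouts.

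Scp2 and Acox3 had lower values in the knockout without passing the test. Scp2, the most abundant gene of this role and located on chromosome 4 from 108043839 to 108144998, stood at 9368, 9238, 9915 and 11809 normalized counts in wildtype and at 8722, 7776 and 7703 in knockout cultures. These did not overlap, with a log2 fold change of -0.32 (95% confidence interval -0.55 to -0.09, edgeR adjusted p = 0.053) and an adjusted p of 0.0241 in DESeq2's Wald test. Acox3, an oxidase for branched chain acyl-CoA, gave 1133, 1148, 1580 and 1175 normalized counts for the wildtype cultures and 894, 903 and 1070.1 for those without Klf13, with a log2 fold change of -0.40 (95% confidence interval -0.72 to -0.07, edgeR adjusted p = 0.0781). With the replicate number as a block its adjusted p was 0.0226, with a log2 fold change of -0.42, and in DESeq2's Wald test it was 0.0373.

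In control replicate 3, the library with the most microglia marker counts, 7 of the 29 genes had their highest control value, compared with 6, 6 and 10 in the other controls. Phyh, Acox3 and Abcd2 are 3 of these 7 and were picked for the plot against the summed microglia markers after their values were seen. Phyh, which hydroxylates phytanoyl-CoA at the start of alpha-oxidation, had normalized counts of 261, 260.4, 448 and 264 in wildtype and of 403, 418 and 467 in knockout libraries. The log2 fold change was 0.48 (95% confidence interval -0.02 to 0.98, edgeR adjusted p = 0.151) with all libraries and 0.71 (edgeR adjusted p = 0.00662) without control replicate 3, which was the only control above 264. Abcd2, a transporter for very long chain acyl groups, read 739, 628, 1122 and 451 normalized counts across the controls, compared with 819.7, 955 and 1071 across the knockouts. Its groups overlapped, and its log2 fold change of 0.37 (95% confidence interval -0.29 to 1.03, edgeR adjusted p = 0.397) became 0.65 without control replicate 3 (edgeR adjusted p = 0.0541), but 0.21 without control replicate 4 (edgeR adjusted p = 0.579) and 0.23 with the replicate block. The change of Acox3 without that library was -0.27 (edgeR adjusted p = 0.0761). The microglia markers themselves did not pass the test in either direction. The cultures had been depleted of microglia, and the part of remaining microglia in the values of these 3 genes was not tested. The more abundant transporter, Abcd3, differed by 0.01 on the log2 scale (95% confidence interval -0.13 to 0.15).

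**Figure D4:**
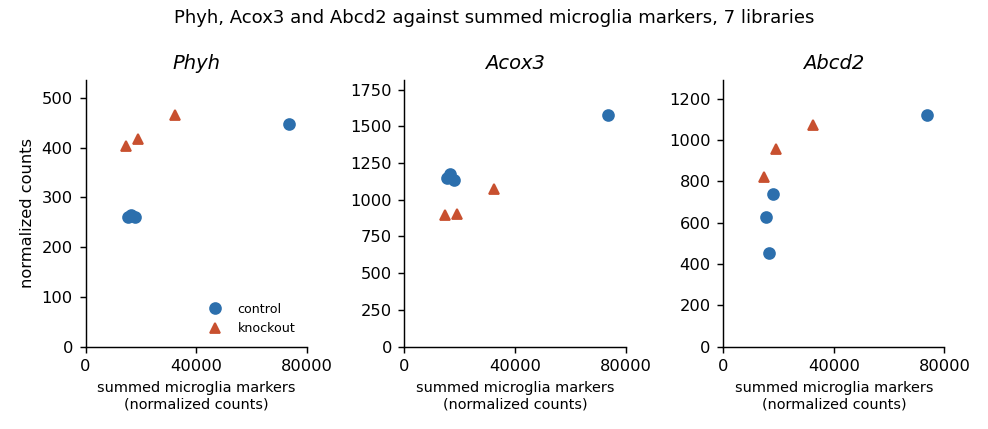
Normalized counts of Phyh, Acox3 and Abcd2 (vertical axes, starting at 0) against the summed normalized counts of 8 microglia markers (horizontal axes) in the 7 libraries (circles, wildtype control; triangles, Klf13 knockout). Control replicate 3 is the single circle far to the right in each panel, with the highest control value of all 3 genes (448, 1580 and 1122).

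The remaining genes of this role showed log2 fold changes of 0.23 for Amacr, a racemase for branched acyl-CoA, -0.08 for the thiolase Acaa1a, -0.13 for Hacl1, which cleaves the product of Phyh, and 0.35 for Acox2. Their adjusted p values from edgeR were between 0.19 and 0.69. The 3 knockouts of Amacr (298 to 305) lay above all controls (225 to 279). For Acox2 the 95% confidence interval was wide, from -0.88 to 1.59.

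Of the 13 peroxins, Pex26 was higher (7.69%, against 11.6% of all genes tested) and the other 12 did not pass the test. The 13 log2 fold changes lay between -0.14 and 0.29 with a median of 0.01, and the 95% confidence interval of each was within 1.5-fold in both directions. Pex26, the membrane anchor of the ATPase complex that returns the import receptors to the cytosol, lies on chromosome 6 from 121183667 to 121198837 and stood at 648, 639, 567 and 608 normalized counts in wildtype and at 758, 772 and 733 in knockout cultures. The groups did not overlap, and the log2 fold change was 0.29 (95% confidence interval 0.11 to 0.47, edgeR adjusted p = 0.0316), with differences of 0.25 and 0.36 in the high and low class of ribosomal share, the latter from 1 knockout library. The call was lost in 8 of 14 alternatives, with an adjusted p of 0.0722 under the replicate block and of at most 0.112. By this measure the increase of Pex26 was the least stable of the 5 calls.

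Pex6, an ATPase of the complex anchored by Pex26, did not pass and had a log2 fold change of 0.14 (95% confidence interval -0.29 to 0.56). Within both groups, Pex6 had higher values in libraries with a low ribosomal share. It had 1933 to 2530 normalized counts in the 3 libraries with a low share and 1509 to 1683 in the 4 with a high share. Pex5, the import receptor for most matrix enzymes, at 2267 to 2434 against 1724 to 1827, and Pex14, its docking partner in the membrane, at 1240 to 1303 against 836 to 1051, were divided in the same manner. With the share as a covariate, Pex6 was called higher (log2 fold change 0.31, edgeR adjusted p = 0.0106), whereas Pex5 and Pex14 were not.

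Of the peroxins that insert membrane proteins, Pex19, the cytosolic chaperone with the highest level of all peroxins and located on chromosome 1 from 172126755 to 172136493, gave 5196, 5149, 4801 and 5111 normalized counts for the wildtype cultures and 5584, 5643 and 4808 for those without Klf13. Its groups overlapped, and its log2 fold change was 0.08 (95% confidence interval -0.09 to 0.24, edgeR adjusted p = 0.478). The values were 0.18 for Pex3, its receptor in the membrane, and -0.09 for Pex16. Pex13, which docks the loaded import receptor, had 1712 to 1859.9 normalized counts in the controls and 1969.7 to 2018 in the knockouts. That was a narrow step without overlap, with a log2 fold change of 0.16 (95% confidence interval 0.04 to 0.28) and an edgeR adjusted p of 0.0663. The receptor Pex7, which imports Agps and Phyh among others, had a log2 fold change of -0.10, and the ubiquitin ligases Pex2 and Pex10 of -0.10 and -0.06.

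Pex11a and Pex11g, which take part in the elongation and division of peroxisomes, had values in opposite directions. Pex11a had 499.5 to 621 normalized counts in the controls and 639.8 to 726 in the knockouts, with a log2 fold change of 0.29 (95% confidence interval 0.06 to 0.53, edgeR adjusted p = 0.0745). Pex11g had 108.6 to 123 and 103 to 105, with a log2 fold change of -0.14 (95% confidence interval -0.45 to 0.16, edgeR adjusted p = 0.482). Neither pair of groups overlapped and neither gene passed. The level of Pex11a per length was 5.26 ± 0.508 (SD, n = 4) times that of Pex11g in the controls and 7.11 ± 0.411 (SD, n = 3) times in the knockouts.

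Cat, on chromosome 2 from 103453849 to 103485160, had normalized counts of 8637, 7813, 8574 and 9409 in wildtype and of 7420.4, 7701 and 7844 in knockout libraries. The highest knockout was just above the lowest control, and the log2 fold change of -0.17 (95% confidence interval -0.33 to -0.01, edgeR adjusted p = 0.123) did not pass.

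By the exon coordinates given with the counts, exons of 12 of the 29 genes share bases with exons of another gene. The strand setting of the counting is not given in the sources used here. Reads of these genes and of their partners therefore cannot be told apart there. Gnpat and Gm16163, and Hacl1 and Colq, lie on the same strand, where no strand setting would separate them. The overlaps of the called genes were short, with 80 bases for Far1 and the antisense gene Far1os, 280 bases for Gnpat and Gm16163 and 88 bases for Gnpat and 2810004N23Rik, and 133 bases for Pex26 and Gm44014. Agps and Ehhadh had none. Among the genes not called, the longest were 1776 bases for Pex14, 1396 bases for Pex11g, 837 bases for Far2 and Ergic2, and 700 bases for Acox3.

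A further 58 tested genes outside the 29 came from lists of other peroxins, membrane and fission proteins, oxidation enzymes and matrix enzymes. Not all of their products are confined to peroxisomes. Of the 58, 10 were lower (17.2%) and 11 higher (19%), against 12.2% and 11.6% of all genes tested. Their median log2 fold change was -0.03. The 16 membrane and fission genes had 3 lower and 3 higher members (18.8% each). Gdap1, a fission factor shared with mitochondria, was higher with a log2 fold change of 0.73 (edgeR adjusted p = 0.0138), and Pxmp2, a pore protein of the membrane, with 0.65 (edgeR adjusted p = 0.036). Without knockout replicate 2 the adjusted p of Gdap1 was 0.0551, and that of Pxmp2 rose above 0.05 in 8 of 14 alternatives. Of the 19 other oxidation genes tested, 6 were lower (31.6%) and 4 higher (21.1%). Acsl1, an acyl-CoA synthetase of several membranes, fell from 4081 ± 351 (SD, n = 4) to 2255 ± 135 (SD, n = 3) normalized counts, a log2 fold change of -0.86 (edgeR adjusted p = 0.000697). Nudt12, a pyrophosphatase for NADH, had a log2 fold change of -0.64 (edgeR adjusted p = 0.00265).

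Among the 20 other matrix enzymes tested, 1 was lower (5%) and 4 were higher (20%), against 12.2% and 11.6% of all genes tested, and 3 of the 4 rose by more than 2-fold, which 3.97% of all genes tested did. Isoc1, an isochorismatase-like protein, rose from 1429 ± 177 (SD, n = 4) to 4367 ± 642 (SD, n = 3) normalized counts, a log2 fold change of 1.61 (edgeR adjusted p = 0.000319). Ddo, the oxidase for D-aspartate, rose with a log2 fold change of 1.11 (edgeR adjusted p = 0.00165). The changes of Acsl1, Nudt12, Isoc1 and Ddo passed in each of 14 alternatives. Fatty acid oxidation in mitochondria, the other site of this pathway, had 1 lower (5.56%) and 6 higher genes (33.3%) among 18, against the same 12.2% and 11.6%, with a median log2 fold change of 0.15. The astrocyte markers (7 of 8 higher, median log2 fold change 0.65) and neuron markers (8 of 10 higher, median 1.75) moved in the same libraries, and the part of these cells in the changes of all these lists was not tested. No difference between the lists was tested.

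**Figure D5:**
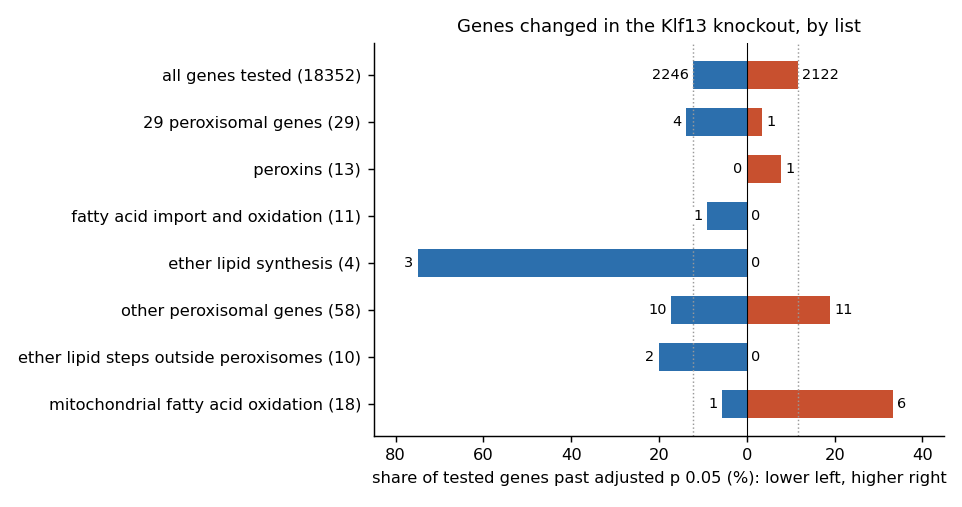
Share of the tested genes of each list with an adjusted p of at most 0.05, lower in the knockout to the left and higher to the right of 0, in percent (numbers at the bars, genes; numbers in parentheses, genes tested; dotted lines, shares of all genes tested, 12.2% and 11.6%). The 29 peroxisomal genes had 4 lower and 1 higher, and the ether lipid synthesis bar stands for 3 of 4 genes.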

How the data were processed

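RNA-seq libraries of 4 wildtype control and 3 Klf13 knockout cultures of primary mouse oligodendroglia were compared. The deposited values are raw counts per gene and library, without normalization, which the authors obtained with Trimmomatic 0.36 (trimming), STAR 2.5.2b (mapping to the ENSEMBL mouse genome, GRCm38 per the labels) and Subread 1.5.2 (unique hits in exons). Annotation release and strand setting are not given in the sources used here. Depth was 24507471 to 59596479 counts on genes. Precision was judged from the spread between libraries. Of 49315 gene identifiers, 48970 had a symbol.

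The main test was that of edgeR 4.0.16 in R 4.3.3 (filterByExpr by group, TMM, robust quasi-likelihood test with the group as only term, 18352 genes, Benjamini-Hochberg adjustment over all of them, two-sided, called at 0.05). The test was run on simulated data beforehand. The labels call the replicates biological and do not say whether they came from separate litters, and p-values measure the spread between these cultures. Alternatives were DESeq2's Wald test (version 1.42.0, the tool of the study), DESeq2's size factors, no filter, at least 10 counts in every library, library sizes without the 100 highest genes, the share of Gm42418, Gm23935 and Lars2 as a covariate, the replicate number as a block, and each library left out. The labels do not say what libraries of the same number share. Deviations from the group means correlated across genes at 0.113, 0.463 and 0.168 in same-numbered pairs and at -0.529 to 0.197 in the others. The values of 0.113 and 0.168 lay within the range of the others, so the correlations do not settle whether the numbers pair the libraries. The main test left the number out, and the block was kept as an alternative.

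The 29 genes and all lists (other peroxins, membrane and fission, other oxidation and matrix enzymes, ether lipid steps outside the peroxisome, PPAR and coactivators, mitochondrial fatty acid oxidation and 7 sets of cell type markers) were chosen with earlier results of these data known, and list counts are descriptions without a test. Of the listed symbols, Pex39, Peds1 and Ept1 were not matched (the latter 2 are other names of Tmem189 and Selenoi). Values in every library are given for called genes and the most abundant gene of each role, and in the other lists the 2 called genes with the largest change are named. Values of Far2, Acox3, Phyh and Abcd2 were added after they were seen. Values of some listed genes are not reported here. Promoter windows came from RefSeq.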

Additional observations from a re-analysis of the deposited data

Results flagged for a closer look

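Among 43 genes checked, the 29 included, 2 had a control library far from the other 3, and chance alone gives about 1 in 20 groups. Acox3 had 1580 normalized counts in control replicate 3, against a median of 1148 in the other controls, and this gap made up 0.906 of the range of the group. Phyh had 448 normalized counts in the same library, against a median of 261, with a gap of 0.981 of the range. The microglia markers of that library summed to 4.44 times, and the fibroblast and mural markers to 3.68 times, the median of the other controls. The part of these cells in both values was not tested.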

How the results depend on the processing

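The count of 4 genes called lower among the 29 was 6 in DESeq2's Wald test, 5 without a filter, with the replicate block and with the ribosomal share as a covariate, and 4 with the other settings that used all libraries. It ranged from 2 to 4 with each library left out, and 2 genes were left without control replicate 1, knockout replicate 1 or knockout replicate 2. The count of 1 gene called higher became 2 with DESeq2's Wald test, with at least 10 counts in every library, with library sizes without the 100 highest genes and with the ribosomal share as a covariate, became 0 without a filter and with the replicate block, and ranged from 0 to 1 with each library left out. Over all 18352 genes tested, the main test called 2246 lower and 2122 higher, and DESeq2's Wald test 2759 and 2478. The replicate block gave 2042 and 1741, the covariate 2482 and 2673, and library sizes without the 100 highest genes 2084 and 2278. Without a filter 1880 and 1535 of 34026 genes were called, and with at least 10 counts in every library 2073 and 2093 of 15545. With each library left out the ranges were 1254 to 2032 and 850 to 1843. With a 2-fold change as a further condition both counts among the 29 were 0. Pairing the libraries by replicate number ended the calls of Pex26 and Rxrg (adjusted p = 0.0722 and 0.0709 in edgeR) and added that of Acox3 (0.0226), and changed no other call among the 43 genes followed through the alternatives (the 29, Klf13 and 13 genes of the other lists). The median log2 fold change of the 29 genes ranged from -0.10 to 0.03, within 0.0699, the spread between replicates, of its value of -0.03. Over all genes, 4368 were called, but 2167 without knockout replicate 2 and 2463 without knockout replicate 1, and without a filter the median of all log2 fold changes was 0.0664. Raw counts were lowest for Acox2, Ehhadh, Far2 and Pex11g. The causes of these differences were not tested.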

Other observations

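Genes that control or share the work of peroxisomes were looked at beside them. Among the 8 genes for PPAR and RXR receptors and their coactivators, which regulate peroxisomal and mitochondrial fatty acid oxidation genes, Rxrg and Ppargc1a were higher (25%, against 11.6% of all genes tested) and the other 6 did not pass the test. In the same libraries, 7 of 8 astrocyte and 8 of 10 neuron markers were higher, and the part of these cells in the changes given here was not tested. Rxrg read 48.6, 36.2, 37.7 and 34.6 normalized counts across the controls, compared with 81.2, 90.0 and 55.6 across the knockouts, which did not overlap, with a log2 fold change of 0.95 (edgeR adjusted p = 0.0258, and 0.0709 with the replicate block). This call was lost in 6 of 14 alternatives. Ppargc1a, a coactivator known for its role in mitochondrial biogenesis, stood at 744, 765, 537 and 441 normalized counts in wildtype and at 1051, 1051 and 1115 in knockout cultures, a log2 fold change of 0.79 (edgeR adjusted p = 0.0244). It was not called when any of the 3 knockout libraries was left out, with an adjusted p of at most 0.0705.

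Of the 18 genes of mitochondrial fatty acid oxidation, Acaa2, Acadm, Acads, Decr1, Echs1 and Etfdh were higher (33.3%) and Cpt1a was lower (5.56%), against 11.6% and 12.2% of all genes tested. Acads, the dehydrogenase for short chains, gave 685, 709.9, 826 and 701 normalized counts for the wildtype cultures and 1150.1, 1315 and 1126 for those without Klf13, which were all above the controls, with a log2 fold change of 0.71 (edgeR adjusted p = 0.00296). Acaa2, the thiolase of the matrix, had a log2 fold change of 0.51 (edgeR adjusted p = 0.00597). Both passed in each of 14 alternatives. Cpt1a, which governs the entry of long chain acyl groups into mitochondria, was named after its values were seen, with a log2 fold change of -0.34 (edgeR adjusted p = 0.0358).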
